A study of Mus musculus with 18 samples.

Results

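The genes followed here are 10 markers of border-associated macrophages, the macrophages that line the meninges, the vessels and the choroid plexus of the brain. They are Mrc1, Lyve1, Cd163, Pf4, Cbr2, F13a1, Stab1, Ms4a7, Dab2 and Folr2. They were chosen by name, as genes known to mark these cells, but with earlier results of these data known. All probe sets that name exactly 1 of these genes were taken, which gave 15 probe sets for the 10 genes, of 34958 such probe sets for 18194 genes on the array. Dab2 had 4 probe sets, Lyve1 and Ms4a7 had 2 each and the other genes had 1.

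RNA was measured on 18 microarrays of cells that were sorted from embryonic mouse hippocampus at E17.5 on the C57BL/6 background. The LPS group held 4 arrays of embryos from mothers with inflammation induced by lipopolysaccharide, a bacterial endotoxin, and the PBS group held 4 arrays of embryos from mothers given PBS. The DAP12KO group held 4 arrays of untreated embryos with the DAP12-/- mutation, and the UT group held 6 arrays of untreated wild-type embryos. DAP12, encoded by Tyrobp, is an adaptor that passes on the signals of receptors such as TREM2. In all groups the cells were selected by FACS as CX3CR1-GFP+, RNA was pooled per pregnant dam, the labels call the cells microglia, and they record the sex as unknown. Not given in the sources used here are the dose and time of LPS, the part of Tyrobp that was deleted and whether the GFP allele was on 1 or both copies. Each label ends in a year, written here as in the labels (_2008, _2010, _2012 or _2013). The LPS and the PBS group each had 1 array labelled _2008, 2 labelled _2010 and 1 labelled _2013. All DAP12KO arrays were labelled _2013, and the UT group had 2 arrays labelled _2012 and 4 labelled _2013. The labels do not say what the year marks.

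Border-associated macrophages and microglia both descend from progenitors of the yolk sac, and both express CX3CR1, so a CX3CR1-GFP sort can hold either. In the adult brain the border macrophages stand out by scavenger and endocytic receptors (Mrc1, Lyve1, Cd163, Stab1, Folr2), while microglia express genes such as P2ry12, Tmem119 and Sall1. The division is less sharp in the embryo, where genes such as Dab2, Lyve1 and Pf4 are also known from immature microglia. The levels below therefore address how much RNA of these markers each sorted sample held. In such bulk samples, fewer cells of a type and less RNA per cell cannot be told apart.

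Promoter windows were available for 9 of the 10 genes (RefSeq, GRCm38.p6, 250 bases before to 50 after the gene's start), and they are described because most of the genes varied together. The core of the binding motif of PU.1, a transcription factor of the macrophage lineage, was searched as GAGGAA on both strands (TTCCTC on the other). It was present in the windows of 7 of the 9 genes, and in 28.3% of the 27025 windows of that length. The core of the MAF recognition element, TGCTGA or TCAGCA on the other strand, was present in 4 of the 9, and in 19.2% of all windows. The 2 motifs can share at most 2 letters at their ends. The stretches before the start are shown for Cd163 and Pf4, which followed each other over arrays, for F13a1, which moved with both, and for Mrc1, whose window held the motif 3 times. They lie at chr6:124304401-124304635 (plus strand) for Cd163, at chr5:90772185-90772434 (plus strand) for Pf4, at chr13:37050245-37050494 (minus strand) for F13a1 and at chr2:14229164-14229413 (plus strand) for Mrc1. Each is written 5′ to 3′ on the gene's strand, and capitals mark the PU.1 core on either strand.
Cd163: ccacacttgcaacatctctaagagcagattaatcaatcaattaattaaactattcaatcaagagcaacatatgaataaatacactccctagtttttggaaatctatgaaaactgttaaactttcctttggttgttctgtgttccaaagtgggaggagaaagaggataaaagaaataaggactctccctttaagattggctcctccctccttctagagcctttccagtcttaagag
Pf4: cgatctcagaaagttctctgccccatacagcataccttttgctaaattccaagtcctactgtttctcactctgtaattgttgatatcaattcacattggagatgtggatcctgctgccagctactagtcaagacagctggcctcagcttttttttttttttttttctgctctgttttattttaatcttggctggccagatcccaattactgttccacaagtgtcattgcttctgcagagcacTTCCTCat
F13a1: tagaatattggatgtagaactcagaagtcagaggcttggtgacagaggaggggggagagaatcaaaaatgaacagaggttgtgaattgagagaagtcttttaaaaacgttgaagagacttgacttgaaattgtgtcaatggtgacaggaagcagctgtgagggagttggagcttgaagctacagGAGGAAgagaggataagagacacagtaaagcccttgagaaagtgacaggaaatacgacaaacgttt
Mrc1: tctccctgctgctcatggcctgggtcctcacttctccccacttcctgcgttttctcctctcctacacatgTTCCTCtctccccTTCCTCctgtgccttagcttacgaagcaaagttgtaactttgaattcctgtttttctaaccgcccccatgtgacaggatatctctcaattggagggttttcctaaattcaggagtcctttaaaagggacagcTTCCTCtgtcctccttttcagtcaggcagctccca
The Cd163 stretch held 0 matches, Pf4 and F13a1 1 each and Mrc1 3, so genes that varied together over arrays differed in the presence of these letters. The matches are a description of letters and not of binding.

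All values are log2 expression values as deposited. Array medians lay between 2.78 and 3.17, and a value under 2.49 is called near the floor. Csf1r and P2ry12, receptors of microglia, were bright on all 18 arrays (14.48 to 15.13 and 12.22 to 14.08). The mean of 21 microglia identity genes was 11.26 and 11.34 on the 2 PBS arrays labelled _2010, against 12.39 to 13.42 on the other 16. These 2 arrays stood apart in other cell types too. Their mean of 19 neuron markers was 10.40 and 10.48, against 5.95 to 8.86 elsewhere, and their mean of the 5 tested fibroblast markers was 7.43 and 8.58, against 2.20 to 6.23. Results of the members between LPS and PBS are therefore given with and without them. For genes of the other lists, the fitted differences between LPS and PBS are given only with them. Tyrobp, the targeted gene, lay at 13.75 to 14.23 on the DAP12KO arrays and at 14.29 to 14.55 on the UT arrays, with no overlap but still bright in DAP12KO. Whether its probes lie in the deleted part is not known here.

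The markers were present in most samples, but their levels were of different kinds. Of the 15 probe sets, 14 passed the filter on low values (mean over arrays of at least 2.49). The exception was the second Ms4a7 probe set, which was near the floor on 14 of 18 arrays. Cbr2, which encodes carbonyl reductase 2, passed only through a few arrays, and was near the floor on 13 of 18. The other 8 genes beside Ms4a7 and Cbr2 had no array near the floor, and neither had the first Ms4a7 probe set. So 9 of the 10 named markers were measured above the floor on all arrays, while Cbr2 was mostly not.

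Cd163, the scavenger receptor for haemoglobin bound to haptoglobin, was among the most variable of the members. On the LPS arrays it was 6.74 (_2008), 12.30 and 11.79 (_2010) and 8.44 (_2013). On the PBS arrays it was 8.93 (_2008), 11.62 and 10.97 (_2010) and 10.26 (_2013). The arrays labelled _2010 were high in both of these groups, and the _2008 and _2013 arrays were lower in LPS than in PBS. On the 4 DAP12KO arrays it was 5.01, 4.97, 5.38 and 5.38, and over the 6 UT arrays it had a lowest value of 3.82, a median of 7.64 and a highest value of 10.73. The DAP12KO arrays thus lay close together at the low end, within the UT range and below every LPS and PBS array. The SD of Cd163 was 2.83 over the 18 arrays, and 0.249% of the tested probe sets had a larger SD. Within the 6 UT arrays the SD was also 2.83 (0.227% larger), whereas over the 4 DAP12KO arrays it was 0.225, against a median of 0.755 for all tested probe sets.

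Lyve1, a receptor for hyaluronan, had 2 probe sets. In the brighter one, the LPS arrays had 10.25 (_2008), 12.9975 and 13.11 (_2010) and 11.56 (_2013). The PBS arrays had 12.24 (_2008), 12.37 and 12.31 (_2010) and 12.92 (_2013). The LPS values were spread on both sides of the PBS values, which lay close together. The DAP12KO arrays had 6.51, 8.09, 8.84 and 8.40, and the UT arrays ran from 8.45 over a median of 10.80 to 12.16. Of the DAP12KO arrays 3 lay below all UT arrays, and DAP12KO-4_2013 lay just above the 2 lowest. The dimmer probe set gave 3.82, 5.20, 3.52 and 6.25 in DAP12KO, against 5.03 to 11.05 in UT, and correlated with the first at Pearson's r = 0.938 over the 18 arrays.

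Pf4, the chemokine CXCL4 that platelets also store, was bright on every array. It was 11.67 (_2008), 13.80 and 12.88 (_2010) and 12.80 (_2013) on the LPS arrays, against 12.60, 13.20 and 12.81, and 13.81 on the PBS arrays of the same years. The DAP12KO arrays had 11.58, 11.20, 11.37 and 11.47, and the UT arrays had a lowest value of 10.65, a median of 12.72 and a highest value of 13.77. The DAP12KO values were close together again, above the lowest UT array, on both sides of the next and below the other 4. Other platelet markers were mixed. Gp5 and Gp6 were near the floor on all 18 arrays, Itga2b on 17, and Ppbp, Gp1bb and Treml1 on 15. Gp1bb reached 5.308 on a PBS array and Treml1 6.28 on a DAP12KO array. Gp9 was near the floor on 1 array and reached 6.245 on a PBS array, and Itgb3 was at 8.08 to 11.54 throughout. The part of platelet RNA in the Pf4 values was not tested.

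F13a1, the A subunit of coagulation factor XIII, had values of 10.03 (_2008), 11.57 and 11.31 (_2010) and 10.20 (_2013) on the LPS arrays. The PBS arrays had 10.78 (_2008), 11.33 and 10.86 (_2010) and 12.32 (_2013). In DAP12KO it was 9.33, 9.04, 6.13 and 8.82, and in UT it ran from 8.02 over a median of 10.11 to 11.16. DAP12KO-4_2013 stood below all other arrays, and the other DAP12KO arrays lay within the UT range.

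Mrc1, the mannose receptor CD206, was bright and differed little between arrays (11.98 to 13.58). Its SD over the 18 arrays was 0.504, and 89.4% of the tested probe sets had a larger one. The LPS arrays had 12.93 (_2008), 13.39 and 13.58 (_2010) and 12.32 (_2013), against 13.03, 13.21 and 13.38, and 13.57 on the PBS arrays of these years. The DAP12KO arrays had 12.32, 12.07, 11.98 and 12.97, and the UT arrays 12.39 to 13.38 with a median of 12.98. In DAP12KO, 3 of the 4 arrays lay below all UT arrays.

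Dab2, an endocytic adaptor protein, was bright in 3 of its 4 probe sets. The brightest had 11.62 (_2008), 13.47 and 13.69 (_2010) and 12.83 (_2013) in LPS, against 12.81, 12.75 and 13.11, and 13.55 in PBS. It had 12.86, 12.21, 11.72 and 12.92 in DAP12KO, and 12.20 to 13.47 with a median of 12.9968 in UT. The groups overlapped in both comparisons. The probe sets of Dab2 did not all follow each other: the discordant one correlated with the other 3 at r between -0.0156 and 0.245, whereas those 3 correlated with each other at 0.565 to 0.714. Statements on Dab2 over arrays rest on the brightest probe set.

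Stab1, the scavenger receptor stabilin-1, behaved differently. It had 11.52 (_2008), 13.27 and 12.48 (_2010) and 14.03 (_2013) in LPS, against 12.18, 12.11 and 11.74, and 13.90 in PBS. It had 13.42, 13.36, 13.75 and 13.21 in DAP12KO, and 13.21 to 13.92 with a median of 13.70 in UT. The label year separated its values: every array labelled _2012 or _2013 was at 13.21 or above, and of the arrays labelled _2008 or _2010 only LPS1_2010 reached that level.

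Folr2, the folate receptor beta, had 4.91 (_2008), 8.85 and 8.37 (_2010) and 8.03 (_2013) in LPS, against 7.03, 7.69 and 5.92, and 9.21 in PBS. It had 8.50, 9.75, 8.71 and 7.05 in DAP12KO, and 8.38 to 10.14 with a median of 8.89 in UT. The 3 lowest values were on arrays labelled _2008 or _2010. Ms4a7, a membrane protein with 4 spanning segments, had 6.67 (_2008), 9.96 and 9.52 (_2010) and 6.23 (_2013) in LPS, against 8.86, 9.05 and 8.27, and 9.68 in PBS, in its brighter probe set. It had 7.13, 10.40, 10.26 and 8.85 in DAP12KO, and 6.66 to 10.18 with a median of 9.33 in UT. Its 2 highest arrays were DAP12KO arrays, and they were not the arrays with high Cd163 or Lyve1. Cbr2 was near the floor on all LPS arrays, on 2 of 4 PBS, 3 of 4 DAP12KO and 4 of 6 UT arrays, and its highest value was 5.70 on DAP12KO-4_2013.

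**Figure D1:**
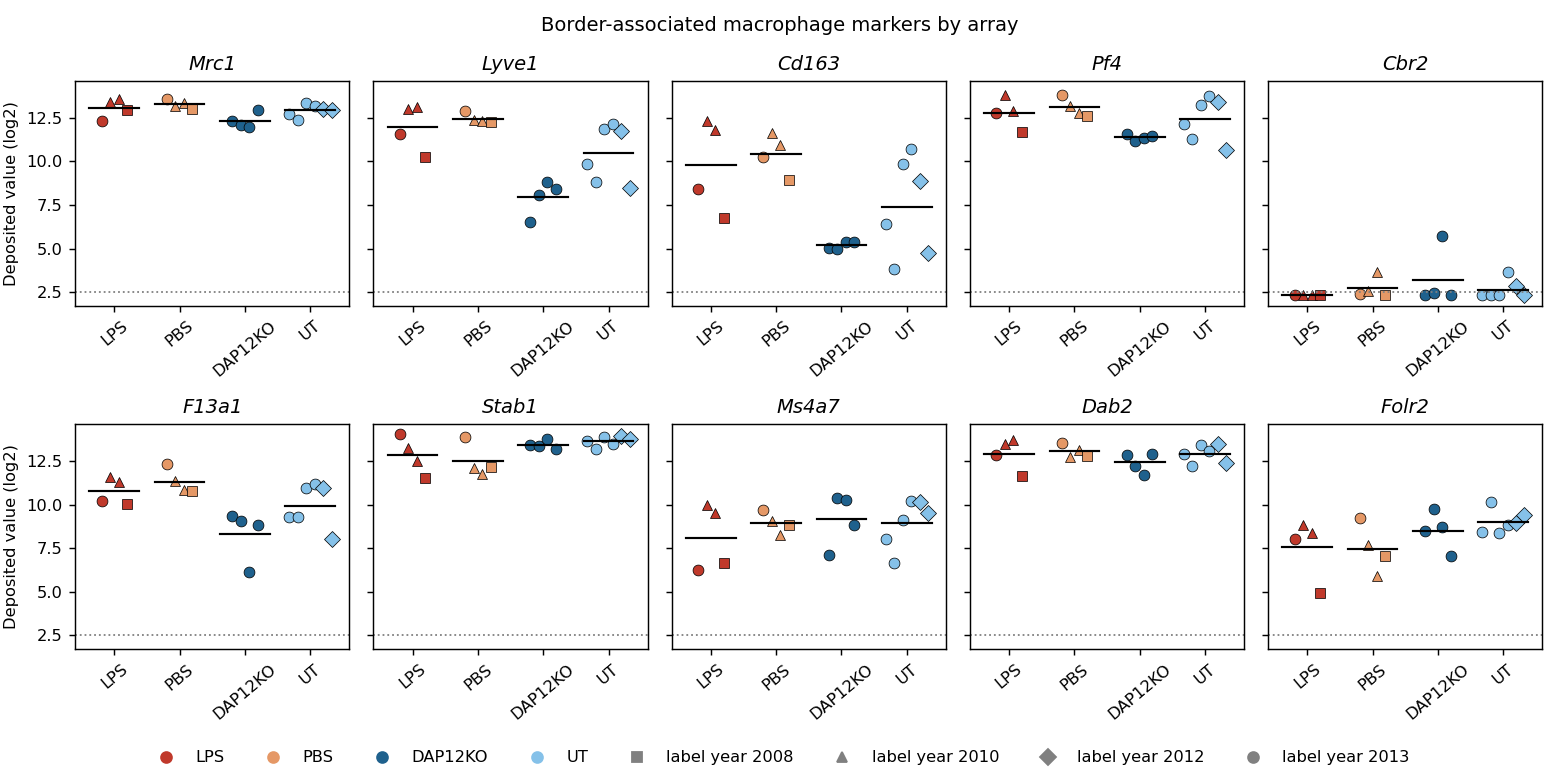
Deposited log2 values (vertical axis) of the 10 markers, in their brightest probe set, by group (horizontal axis). Each point is an array, its shape gives the label year, the bar is the group mean, and the dotted line is the filter at 2.49. The 4 DAP12KO arrays of Cd163 lie between 4.97 and 5.38, and the 6 UT arrays between 3.82 and 10.73.

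The question of the first comparison was whether inflammation of the mother changed these markers in the sorted cells. No member passed: 0 of the 14 tested probe sets, and 0 of the 10 genes, had an adjusted p under 0.05 between LPS and PBS (limma with the label year as a term, Benjamini-Hochberg over 22512 probe sets), where 0.0267% of all tested probe sets did. None of the 14 had an unadjusted p under 0.05 either, against 12.3% of all tested probe sets. With 1 probe set per gene, 8 genes had lower and 2 had higher means in LPS, with a median difference of -0.35 for the 10 genes and -0.10 for all tested probe sets, and Mrc1 and Dab2 turned to higher when arrays were centred on their medians. The counts depended on how the arrays were used: with array weights, which give arrays that vary more a smaller weight, 8 genes were higher and 2 lower in LPS (Cd163 at 0.33 and Lyve1 at 0.30), and without the 2 PBS arrays labelled _2010 all 10 were lower. The last count rests on the _2008 and _2013 arrays alone, 1 against 1 in each. Cd163 differed by -0.63 ± 1.23 (SE, n = 4 each, limma adjusted p = 0.908) and Lyve1 by -0.48 ± 0.82 (0.884). F13a1 differed by -0.54 ± 0.76 (limma adjusted p = 0.847), Pf4 by -0.32 ± 0.56 (0.890) and Mrc1 by -0.24 ± 0.28 (0.795). These differences were all smaller than their standard errors. Stab1 was at +0.34 ± 0.26 (limma adjusted p = 0.632), Ms4a7 at -0.87 ± 0.90 (0.763) and Folr2 at +0.08 ± 0.74 (0.992). The Dab2 probe sets were at -0.15 ± 0.37 in the brightest, -0.20 ± 0.39 and -0.61 ± 0.77 in the 2 that follow it, and +0.95 ± 0.53 in the discordant one, which had the lowest limma adjusted p of the members (0.489).

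The direction between LPS and PBS depended on the label year. In the _2008 arrays (1 against 1) all 10 genes were lower in LPS, with a median difference of -1.06, and in the _2013 arrays (1 against 1) 9 of 10 were lower, with a median of -1.21. In the _2010 arrays (2 against 2) 9 of 10 were higher in LPS, with a median of 0.68. Cd163, for example, was at -2.19 in _2008, 0.75 in _2010 and -1.82 in _2013, and Lyve1 was at -1.99, 0.72 and -1.35. Cbr2 was the exception in _2010, at -0.75. Medians over all tested probe sets within a year are not given here, and a shift of whole arrays was not tested. The counts are also not of independent genes, as several of the markers moved together over arrays. The _2010 PBS arrays are those with low microglia and high neuron means. Without them, the difference between LPS and PBS was -2.004 for Cd163 and -1.67 for Lyve1, and no member passed (limma adjusted p = 0.743 for Cd163). With the year term, these differences rest on the _2008 and _2013 arrays, 1 against 1 in each. The _2010 LPS arrays then add to the estimate of the spread only, so these values restate the differences within _2008 and _2013. Over all years, 21 of 21 microglia identity genes were higher in LPS (median 0.50) and 18 of 19 neuron markers lower (median -1.03), with 0 past the limma threshold and 10 and 6 at an unadjusted p under 0.05. The part of neural or fibroblast RNA in the values of the members was not tested.

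The second comparison asked whether loss of DAP12 changed the markers. Again 0 of 14 probe sets passed between DAP12KO and UT, where 0% of all 22512 tested probe sets did (limma, adjusted p under 0.05). At an unadjusted p under 0.05, 4 of the 14 were lower in DAP12KO and 0 higher, against 2.54% lower and 2.94% higher among all tested probe sets. These were both Lyve1 probe sets, F13a1 and Pf4. They were not independent of each other. The 2 Lyve1 probe sets correlated at r = 0.938 over the 18 arrays, and Lyve1, F13a1 and Pf4 with each other at 0.806 to 0.879. The 4 of 14 were therefore not tested against the share of all probe sets. With 1 probe set per gene, 8 genes were lower and 2 higher, with a median difference of -0.53 against 0.02 for all tested probe sets. Because all DAP12KO arrays were labelled _2013, the difference with the year term is against the 4 UT arrays labelled _2013, and the 2 labelled _2012 add to the estimate of the spread only.

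Lyve1 differed most, by -2.72 ± 0.82 in the brighter probe set (SE, n = 4 in DAP12KO and 4 in UT with 2 more for the spread, limma unadjusted p = 0.00448, adjusted p = 0.676) and by -3.77 ± 1.13 in the dimmer one (limma 0.00447 and 0.676). F13a1 differed by -1.84 ± 0.76 (limma unadjusted p = 0.0289, adjusted p = 0.874), and without DAP12KO-4_2013 by -1.11. Pf4 differed by -1.22 ± 0.56 (limma unadjusted p = 0.0450, adjusted p = 0.898). All 4 DAP12KO arrays lay below the UT mean for Lyve1, Cd163, F13a1 and Pf4, and in each of these genes the groups overlapped. In the brightest probe sets, 3 of 4 lay below it for Mrc1, Cbr2, Stab1, Dab2 and Folr2, and 2 of 4 for Ms4a7. The share of all tested probe sets with all 4 arrays below the UT mean is not given here, so these counts are a description only. Cd163 differed by -2.51 ± 1.23 (limma unadjusted p = 0.0585, adjusted p = 0.903) and Mrc1 by -0.58 ± 0.28 (0.0517 and 0.898). Leaving out UT-6_2013 or UT-2_2013 put the Cd163 difference at -1.50 or -3.81, so it followed single UT arrays. The brightest Dab2 probe set was at -0.48 ± 0.37, Stab1 at -0.12 ± 0.26, Folr2 at -0.44 ± 0.74, Ms4a7 at +0.67 ± 0.90 and Cbr2 at +0.54 ± 0.64 (limma adjusted p from 0.923 to 0.988). The higher mean of Cbr2 rested on DAP12KO-4_2013, without which the difference was -0.29. The microglia identity mean was 13.24 to 13.42 in DAP12KO and 13.17 to 13.42 in UT, and the neuron mean was 6.07 to 7.05 in DAP12KO and 5.95 to 7.42 in UT, so both overlapped. The mean of the 5 tested fibroblast markers did not overlap, at 2.20 to 2.88 in DAP12KO and 3.001 to 3.737 in UT. Of these, Igf2, a growth factor, lay at 2.22 to 5.55 in DAP12KO and at 6.09 to 9.69 in UT and differed by -2.77 ± 1.12 (limma unadjusted p = 0.0256, adjusted p = 0.874). The other 4 (Col1a1, Col1a2, Col3a1 and Ptgds) were near the floor on all DAP12KO arrays, and on the UT arrays only Col3a1 exceeded it, at up to 3.76. The part of fibroblast RNA in the lower values of the members was not tested.

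**Figure D2:**
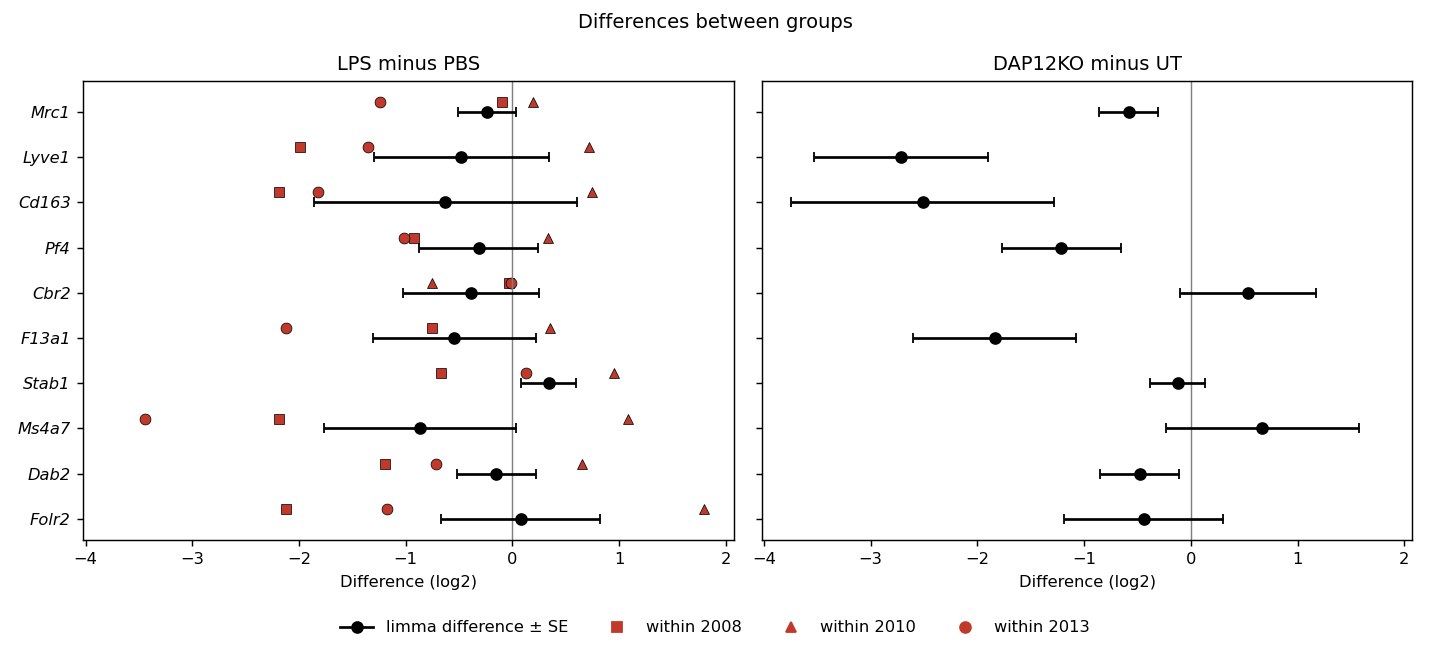
Differences in log2 values (horizontal axis) for the 10 markers (vertical axis), in their brightest probe set. Black points are the limma differences with standard errors as bars, LPS minus PBS at the left and DAP12KO minus UT at the right, and red shapes are the LPS minus PBS differences within a label year. The _2010 shapes lie above 0 for 9 genes, and the DAP12KO difference of Lyve1 lies at -2.72.

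The next question was how the markers moved together from array to array. Of the 45 pairs of genes, 16 had a correlation with an adjusted p under 0.05 over the 18 arrays (Pearson's r, permutation test with 100000 resamples, Benjamini-Hochberg over the 45 pairs), and all 16 were positive. The permutations exchanged arrays freely between groups and label years, so the p-values take no account of differences between these. The share of pairs of other genes that would pass is not given here. This count and those below are therefore not shown to be particular to the markers. Lyve1 and Cd163 had r = 0.932 (Spearman's rho = 0.940, permutation adjusted p = 0.00015 and 0.00009), and r = 0.957 without the 2 arrays farthest from the median of Lyve1. Cd163 and Pf4 had r = 0.904 (rho = 0.867, permutation adjusted p = 0.00015 and 0.000225), and 0.888 without 2 arrays. Pf4 and F13a1 had r = 0.852 (rho = 0.926, permutation adjusted p = 0.00015 and 0.00009), and 0.831 without 2 arrays.

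Of the 16 pairs, 15 were all the pairs that Mrc1, Lyve1, Cd163, Pf4, F13a1 and Dab2 form, with r from 0.624 to 0.932 and a median of 0.773. This grouping of 6 genes was seen in the data and is given as a description. The other 30 pairs had a median r of -0.0144. Mrc1 belonged to the 6 despite its small spread, with r = 0.785 to Cd163 (rho = 0.844). Cbr2, with 13 arrays near the floor, had no pair that passed. Ms4a7 had r between 0.05 and 0.31 with the 6 genes, and had no pair that passed over the 18 arrays, but this rested on few of them. Without the DAP12KO arrays Ms4a7 passed with Mrc1 (r = 0.737, rho = 0.591, permutation adjusted p = 0.0133 and 0.0686) and with Dab2 (r = 0.671, rho = 0.596, permutation adjusted p = 0.0249 and 0.0686). Over all groups, r between Mrc1 and Ms4a7 was 0.272, and 0.759 without the 2 arrays farthest from the median of Mrc1. After the mean of each group and year was taken off, Lyve1 and Ms4a7 had r = 0.782 over 14 arrays.

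The same correlations were computed over parts of the arrays. Since the 6 genes were picked from all 18 arrays, the values in these parts describe the pattern and do not test it independently. Over the 10 arrays labelled _2013, the 15 pairs of the 6 genes had r from 0.616 to 0.983 (median 0.792), and 10 of the 45 pairs passed, all of them among the 15. Lyve1 and Cd163 had r = 0.915 there and Cd163 and Pf4 had 0.983. Within the 6 UT arrays, where no treatment or mutation differed, the 15 correlations ran from 0.592 to 0.989, and Lyve1 and Cd163 had r = 0.976 (exact permutation test, adjusted p = 0.0625). With 6 arrays and 45 pairs, 0 passed. This adjusted p is the lowest that 1 pair alone can reach here, so the count of 0 decides nothing. After the mean of each group and year was taken off, the 15 correlations over 14 arrays were 0.432 to 0.932, with a median of 0.648 and no test. Lyve1 and Cd163 had r = 0.892 there, but Lyve1 and F13a1 had 0.432 (0.185 without 2 arrays) and Lyve1 and Dab2 0.467 (0.0999 without 2 arrays). For Cd163 the UT arrays alone ran from 3.82 to 10.73, where all arrays ran from 3.82 to 12.30. UT-3_2013, UT-6_2013 and UT3_2012 were high in Cd163, Lyve1, Pf4 and F13a1, and UT-1_2013, UT-2_2013 and UT4_2012 were low in all 4.

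The 16th pair was Stab1 and Folr2, with r = 0.746 (permutation adjusted p = 0.00247) but rho = 0.513 (adjusted p = 0.0799). It rested on few arrays: r was 0.449 without the 2 arrays farthest from the median of Stab1, and -0.167 within the _2013 arrays. Stab1 had r between -0.29 and 0.20 with the 6 genes over 18 arrays, but 0.68 with Lyve1, 0.65 with Cd163 and 0.62 with Pf4 within _2013. These pairs did not pass the test within _2013.

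**Figure D3:**
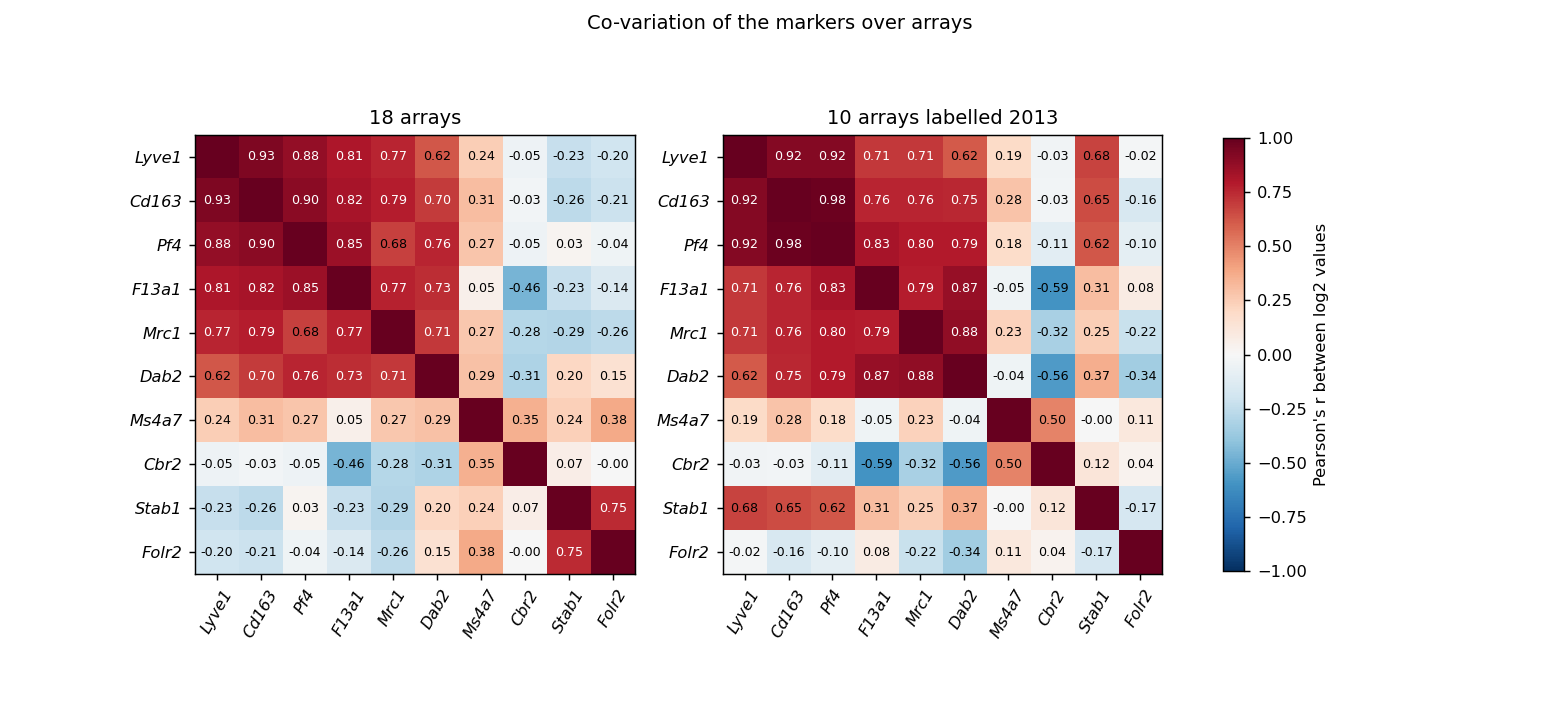
Pearson's r between the log2 values of each pair of markers, over all 18 arrays at the left and over the 10 arrays labelled _2013 at the right; both axes list the genes and the colour gives r. Lyve1, Cd163, Pf4, F13a1, Mrc1 and Dab2 form a block of positive values (0.624 to 0.932 at the left).

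**Figure D4:**
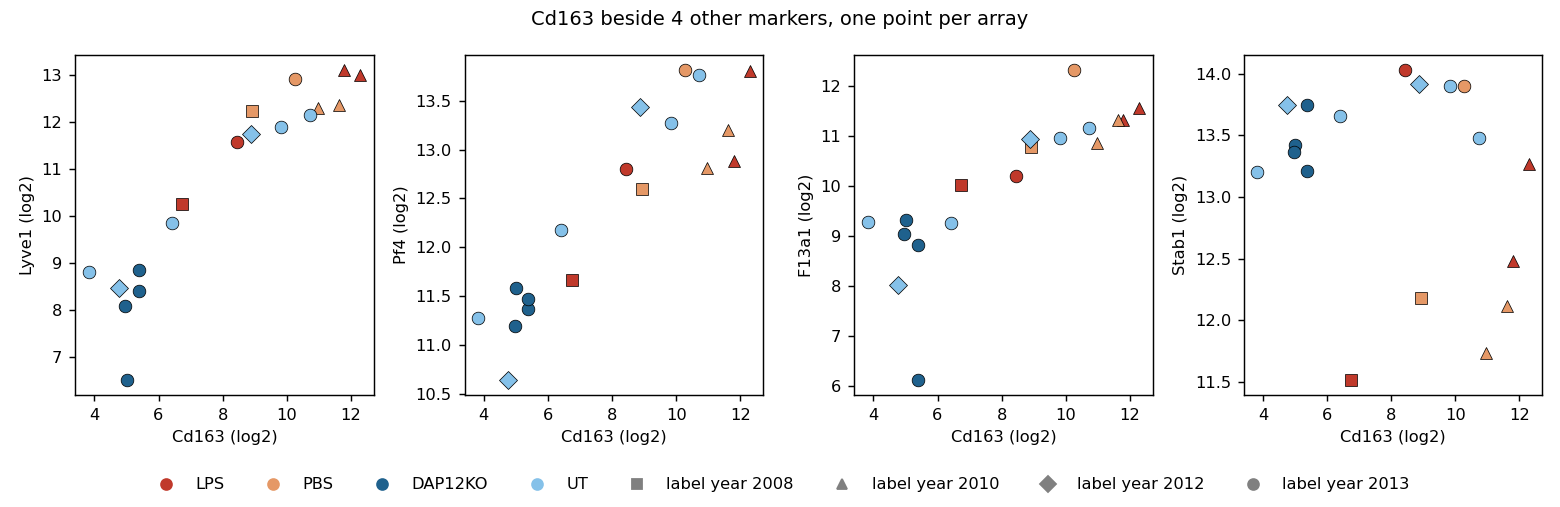
Cd163 (horizontal axis, log2) beside Lyve1, Pf4, F13a1 and Stab1 (vertical axes, log2), with 1 point per array, coloured by group and shaped by label year. Lyve1, Pf4 and F13a1 go up with Cd163 from the DAP12KO arrays and 3 UT arrays at the lower left, and Stab1 does not.

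Summarised as the mean of the 10 genes, the level was 8.87 to 11.20 in LPS, 10.08 to 11.16 in PBS, 8.90 to 9.38 in DAP12KO and 9.02 to 11.02 in UT. The DAP12KO arrays had the narrowest range, at the low end of the UT range, with 1 array below it. The LPS arrays had the widest, with _2010 at the top and _2008 at the bottom. Genes with a large spread, such as Cd163 and Lyve1, weigh most in how this mean varies.

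The members were also set against the means of 12 other marker lists, and of the 120 relations 3 passed by Pearson's r and 11 by Spearman's rho (18 arrays, permutation test, each adjusted over the 120). The 3 passed by both. Stab1 followed the microglia identity mean (r = 0.824, rho = 0.684, permutation adjusted p = 0.0108 and 0.0393), and r was 0.822 without the 2 arrays farthest from the median, but 0.101 within the _2013 arrays. Cd163 followed the neuron mean (r = 0.732, rho = 0.776, permutation adjusted p = 0.0120 and 0.0246), with 0.744 without 2 arrays and 0.729 within _2013. It followed the mean of meningeal and perivascular fibroblast markers more weakly (r = 0.663, rho = 0.659, permutation adjusted p = 0.0380 and 0.0406, 0.639 without 2 arrays and 0.494 within _2013). Of the 13 fibroblast markers on the array, 5 passed the filter, and Lum, Foxc1, Slc6a13 and Aldh1a2 were near the floor on all 18 arrays. Of the 5, Col1a1, Col1a2 and Col3a1 were near the floor on 13 arrays each and Ptgds on 14, against 2 for Igf2. Where those 4 were near the floor, the fibroblast mean varied with Igf2 alone, so relations to it are no measure of fibroblast RNA there. By rho alone, the neuron mean was also followed by Lyve1 (r = 0.585, rho = 0.713, permutation adjusted p = 0.156 and 0.0393), Mrc1 (0.565 and 0.662, adjusted p = 0.172 and 0.0406) and F13a1 (0.565 and 0.657, adjusted p = 0.176 and 0.0406). Cd163 was thus not alone in this. Within the _2013 arrays the correlation with the neuron mean was 0.919 for Dab2, 0.837 for F13a1, 0.770 for Pf4, 0.757 for Mrc1 and 0.659 for Lyve1. It was 0.46 for Stab1, -0.0442 for Ms4a7, -0.306 for Folr2 and -0.576 for Cbr2. These values within _2013 were not tested, and over the 18 arrays Dab2 and Pf4 passed by neither measure. The fibroblast mean was followed by rho alone in Lyve1 (r = 0.541, rho = 0.712, permutation adjusted p = 0.176 and 0.0393) and F13a1 (0.478 and 0.689, adjusted p = 0.207 and 0.0393). The other relations by rho alone were Ms4a7 with the other border macrophage genes (rho = 0.754, permutation adjusted p = 0.0246), Cd163 with neural progenitors (0.697, adjusted p = 0.0393) and Lyve1, inversely, with the microglia identity mean (-0.662, adjusted p = 0.0406). The part of RNA from these other cells in the correlations between members was not tested. With the microglia identity mean taken off each gene, 17 of the 45 pairs passed, and the 15 correlations were 0.831 to 0.973, although a value taken off both genes adds to their correlation.

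Other genes known from border macrophages were examined as a list of 27, of which 24 were on the array and 18 passed the filter. None of the 18 passed the limma test in either comparison, and 1 in each had an unadjusted p under 0.05. Between LPS and PBS, 14 were higher and 4 lower over all years, with a median difference of 0.28. The direction depended on the label year here too. In the _2010 arrays the mean of the 18 was 8.725 and 8.319 in LPS, against 7.803 and 7.23 in PBS. It was lower in LPS in the _2008 arrays (7.97 against 8.124) and in the _2013 arrays (7.893 against 9.054), 1 against 1 in each. Between DAP12KO and UT, 8 were higher and 10 lower, with a median of -0.06. Clec10a, a lectin, differed most between LPS and PBS (-1.32 ± 0.47, limma unadjusted p = 0.0134, adjusted p = 0.272), but was near the floor on 10 arrays. Colec12, a scavenger receptor of the collectin family, was at 2.71 to 4.54 in DAP12KO and at 4.56 to 6.23 in UT, with no overlap. It differed by -1.90 ± 0.63 (limma unadjusted p = 0.00856, adjusted p = 0.779). Among all tested probe sets, 0.569% were lower in DAP12KO with no overlap.

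Ednrb, an endothelin receptor, lay at 4.76 to 6.59 in DAP12KO and at 4.04 to 9.62 in UT, and differed by -2.07 ± 1.03 (limma adjusted p = 0.905). Between LPS and PBS it differed by -1.06 ± 1.03 (0.738). Wfdc17 was at +1.69 ± 0.81 and Blvrb, which encodes a biliverdin reductase, at +0.94 ± 0.59 in DAP12KO (limma adjusted p = 0.898 and 0.921). Ms4a6b was at +0.39 ± 0.27 and Apoe, a lipid carrier, at +0.59 ± 0.49 in LPS (limma adjusted p = 0.587 and 0.678). Several genes of mature border macrophages did not pass the filter, although the lectin Clec10a and the chemokine Ccl24 did. Of these, Cd209b, Cd209d, Mgl2 and Ccl8 were near the floor on all 18 arrays, and Cd209f and Timd4 on 17. Of the 5 MHC class II genes, H2-Eb1 was near the floor on all 18 arrays, Ciita on 17 and H2-Aa on 16, while H2-Ab1 ran from 3.17 to 5.27 and Cd74 from 3.11 to 7.96.

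Markers of blood leukocytes were mostly near the floor as well. Ngp, Ltf, Camp, Chil3, F10, Mpo, Elane and Mmp8 were near the floor on all 18 arrays, S100a9 on 17 and Ccr2, the receptor of classical monocytes, on 15. Of the 3 that passed the filter, Plac8 differed by +2.34 ± 0.87 between LPS and PBS (limma adjusted p = 0.286) and Ccr2 by -1.80 ± 0.76 (0.347). Endothelial markers were mixed. Of the 12 on the array, 4 passed the filter, and Emcn, Slco1a4, Sox17 and Tie1 were near the floor on 17 arrays. Pecam1 (2.96 to 10.56) and Egfl7 (5.42 to 8.92) were near the floor on none, and both had their highest value on a DAP12KO array. None of the tested genes of the other 11 lists passed the limma test in either comparison, and at an unadjusted p under 0.05 there were 0 to 10 per list between LPS and PBS and 0 or 1 between DAP12KO and UT.

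The genes most like the members over the 18 arrays were found by Pearson's r with the mean of the members' deviations from their own means, among 11086 genes, as a description. The deviations were not scaled, so members with a large SD weighed most in this mean. The SD was 2.83 for Cd163 and 2.06 for the brighter Lyve1 probe set, against 0.504 for Mrc1. Ednrb (r = 0.858) and Ccl24, a chemokine (0.809), came first and second, and both stand on the list of other border macrophage genes. That list, too, was chosen with earlier results of these data known. Cd36 (0.797), Msr1 (0.749), Iqgap2 (0.749), Cfp (0.749), Mrm2 (0.744), Fbxw7 (0.729), Kmt5b (0.727) and Raly (0.718) followed. Cd36 and Msr1 are scavenger receptors and Cfp encodes properdin of the complement system. The rest of the border list was spread over the ranking, from Slc40a1 at rank 887 (r = 0.441) to Wfdc17 at rank 10269 (r = -0.344). When the mean of each group and year was taken off first (14 arrays), the order was different, with Dennd1a (0.926), Psenen (0.912), Atp23 (0.912), Cirbp (0.900), Pola2 (0.886), Ube2z (0.883), Kat5 (0.870), Arl2bp (0.858), Atp6v1f (0.856) and Ccdc39 (0.853) at the top. The 2 sets of 10 share 0 genes.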

How the data were processed

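Per the labels' protocols, pooled hippocampi were digested with trypsin and DNase, CX3CR1-GFP+ cells were sorted by FACS, and RNA (miRNeasy kit) was amplified with Ovation Pico WTA v2, biotinylated with the Encore module and hybridized to Affymetrix Mouse430_2 arrays. The authors deposited log2 expression values of 45101 probe sets on 18 arrays. They were made with RMA, per the submitters' processing notes, which removes background, scales the arrays to each other and combines the probes of a set. The RMA version, and if the arrays went through it as 1 set, is not known here. The values were used as deposited, and for arrays their number limits the precision.

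Of the probe sets, 34958 name 1 gene, 932 several and 9211 none. Those with 1 gene and a mean over all arrays of at least the 40th percentile (2.49) were tested, 22512 in all. All 18 arrays were fitted in limma 3.58.1 (R 4.3.3), using group means plus an additive term for the label year (11 residual degrees of freedom), a variance prior that follows intensity, two-sided tests and Benjamini-Hochberg adjustment at 0.05. Differences have standard errors. The fit was tested on simulated data. Correlations used scipy 1.17.1 in Python 3.11.15, with 100000 resamples, or exact over 6 arrays, on the probe set of each gene with the highest mean. Groups came from the labels, and RNA was pooled per dam per the series' design text, so an array was taken as a replicate. Among _2010 arrays the LPS and PBS arrays with the same number deviated alike (r = 0.521 over probe sets). Among _2013 arrays, DAP12KO and UT arrays with the same number did not (-0.011 and 0.002). With 2 pairs in each comparison the numbers were not taken as pairing.

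The members and all lists were chosen with earlier results of these data known. Named genes are all members, the genes of the other border list that passed or had the 4 lowest p in a comparison, counts and defining genes of the other lists with their 2 lowest p (given where they bear on the members), the 10 genes most like the members by each measure, and Tyrobp, Cx3cr1, P2ry12 and Csf1r. Cx3cr1 lay between 10.75 and 13.53. Alternatives covered the filter, probe set choice, scaling, year term, samples in the fit, weights, a replicate block, marker means as covariates and leaving out arrays. Of these, correlations without the DAP12KO arrays and within the UT arrays were added after seeing the data. Promoter windows and their positions came from the RefSeq table of GRCm38.p6, and none is shown for Lyve1.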

Additional observations from a re-analysis of the deposited data

Results flagged for a closer look

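Of 56 groups of 4 to 6 arrays examined over the member probe sets, 2 held an array far from the others of its group by Dixon's criterion, where chance alone gives about 5%. Both were DAP12KO-4_2013. Cbr2 was at 5.70 there, against 2.34 to 2.45 on the other DAP12KO arrays. F13a1 was at 6.13 there, against 8.82 to 9.33 on the other 3.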

How the results depend on the processing

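The main limit is the number of arrays, with 1 or 2 per group and label year for LPS and PBS. Of 970 member values under other settings, 914 kept their direction and side of the threshold, 55 reversed and 1 newly passed. The cause of each change was not tested. Between DAP12KO and UT, Lyve1, Cd163, Pf4, F13a1, Mrc1, Stab1 and the Dab2 probe sets other than the discordant one stayed lower under every setting. Ms4a7 stayed higher under every setting, so a constant direction was not particular to the genes with large differences. Under no setting did a member gene pass (0 in all). Centring arrays on their medians moved all LPS minus PBS differences by 0.24 and all DAP12KO minus UT differences by -0.06.

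The number of probe sets past the threshold between LPS and PBS, 6 in all, was 11 with 1 probe set per gene, 0 with the filter at the 60th percentile, 1 without the year term, 0 with these 2 groups only, 1 with centred arrays, 14 with quantile normalization, 1968 with array weights (557 higher, 1411 lower), 1 and 15 with the neuron and the microglia mean as covariates, 21 without the 2 PBS arrays labelled _2010, 11 without all _2010 arrays, 144 without _2008 and 203 with _2013 only. Leaving out 1 array gave 1 to 243, with 243 without LPS-3_2_2013, 233 without PBS-2_2013, 141 without LPS3_2008 and 144 without PBS4_2008. With array weights 1 member gene passed, Stab1 (0.83, limma adjusted p = 0.0357; 0.0357 to 1.0 over its settings). For DAP12KO the number was 0 under the other settings and 0 to 5 on leaving out 1 array (1, 2 and 5 without DAP12KO-1_2013, DAP12KO-4_2013 and DAP12KO-5_2013, and 2 and 1 without UT-1_2013 and UT-3_2013). With a replicate block, 6 probe sets passed between LPS and PBS and 0 between DAP12KO and UT, where Cd163 was at -0.85, Pf4 at -0.43 and F13a1 at -0.91.

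The reversed LPS minus PBS values were as follows. With centred arrays, Dab2 was at 0.047 and 0.091 (the second and the brightest probe set) and Mrc1 at 0.0043. With array weights, Cd163 was at 0.33, Dab2 at 0.32, 0.35 and 0.34, Ms4a7 at 0.41, Lyve1 at 0.22 and 0.30, F13a1 at 0.020 and Pf4 at 0.18. With the replicate block, Ms4a7 was at 0.19 and Mrc1 at 0.017. With the neuron mean as a covariate, Cd163 was at 0.12, the dimmer Lyve1 probe set at 1.07, Dab2 at -0.042 and 0.083, F13a1 at 0.15, Stab1 at -0.050 and Folr2 at -2.12. With the microglia mean, Cbr2 was at 0.28, Stab1 at -0.37 and Folr2 at -1.22. Without the 2 PBS arrays labelled _2010, or without all _2010 arrays, Stab1 was at -0.27 and Folr2 at -1.65. Without _2008, Dab2 was at 0.13 and 0.19 and the brighter Lyve1 probe set at 0.026. With _2013 only, the discordant Dab2 probe set was at -1.38 and Folr2 at -1.18. On leaving out 1 array the ranges that crossed 0 were -0.40 to 0.13, -1.19 to 0.11 and -0.38 to 0.19 for Dab2, -0.78 to 0.32 and -0.74 to 0.026 for Lyve1, -0.36 to 0.10 for Mrc1 and -0.62 to 0.81 for Folr2. Reversed values among these were 0.13, 0.11, 0.19 and 0.037 for Dab2, 0.32 and 0.026 for Lyve1, 0.10 for Mrc1, and -0.62 to -0.17 for Folr2.

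Between DAP12KO and UT, the discordant Dab2 probe set reversed to -0.21 with the neuron mean and ran from -0.20 to 0.38 on leaving out 1 array, with -0.17 as the other reversed value. Cbr2 ran from -0.29 to 0.87 and Folr2 from -0.86 to 0.045. Of the 45 pairs of members, 16 passed over 18 arrays, 15 with Spearman's rho, 10 within _2013, 14 without _2010, 17 with the microglia mean taken off, 17 without the DAP12KO arrays and 0 within the 6 UT arrays, where 1 pair alone could not pass.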
